A study of Mus musculus with 9 samples.

Results

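The genes described here are 33 genes of the smooth muscle contractile apparatus and its actin cytoskeleton, chosen by name and matched to the identifiers of the table through the GENCODE mouse release 21 annotation. All 33 were among the 33293 identifiers, and all 33 were among the 13383 genes tested. They fall into 11 contractile markers (Acta2, Myh11, Tagln, Cnn1, Smtn, Myocd, Lmod1, Actg2, Mylk, Des and Synpo2) and 22 broad actin cytoskeleton genes. The RNA was from dissected aorta of male mice, 7 to 8 weeks old, fed normal chow. The groups were C57BL/6J (WT, 5 libraries) and Apoe-knockout (Apoe_KO, 4 libraries), whose mice lack apolipoprotein E, a lipoprotein component through which receptors clear lipid from plasma. The labels name neither the knockout allele nor whether each library came from its own animal, so p-values measure only the spread between these libraries. Whole aorta also holds other cell types, and in such bulk samples fewer cells of a type and less RNA per cell cannot be told apart.

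Smooth muscle shortens when filaments of smooth muscle myosin pull on actin filaments. Myosin light chain kinase switches the motor on by phosphorylating the regulatory light chain, and myosin phosphatase switches it off. RhoA, through the ROCK kinases, holds the phosphatase back and so sustains tone. Actin filaments are anchored in dense bodies and at the membrane in adhesion plaques. Most of the genes are driven by serum response factor, which binds the CArG box in DNA and is joined in smooth muscle by its coactivator myocardin. In the vessel wall the contractile markers among them are used to mark the smooth muscle cells of the media. Loss of these markers is the usual sign of a modulated cell. The broad genes include ones shared with other cells and are not read here as such markers.

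Levels are given as FPKM, reads or fragments per kilobase of exon scaled to library depth, so that they can be compared between genes. Library depth was 17.0 to 19.8 M reads or fragments, which puts 1 read on 2 kb of exon at 0.0252 to 0.0294 FPKM. Apoe averaged 563 ± 54.0 FPKM over the WT libraries and 6.22 ± 0.401 FPKM over the Apoe_KO libraries (SD, n = 5 and 4), and every library followed its label. WT 2 and Apoe_KO 4 stood apart by B and plasma cell transcripts. The summed level of 8 such markers was 495 FPKM in WT 2 and 413 FPKM in Apoe_KO 4, against 15.5 to 40.7 FPKM in the other libraries. Counts that lead the text are therefore also given without that pair.

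The smooth muscle identity of the tissue was plain in every library. Acta2, the smooth muscle alpha-actin of the thin filament, was the most abundant of the 33 genes in all libraries, at 3683 to 4669 FPKM, and made up 41.2% of their summed FPKM in WT and 39.8% in Apoe_KO. Myl9, the regulatory light chain on which the kinase and the phosphatase act, followed at 1412 to 1639 FPKM. By mean level 8 genes stood at 200 FPKM or more, 10 between 50 and 200 FPKM and 15 below 50 FPKM. The lowest group held regulators (Myocd, Srf, Rhoa, Rock2), anchoring proteins (Des, Vcl, Palld) and Tagln.

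**Figure D1:**
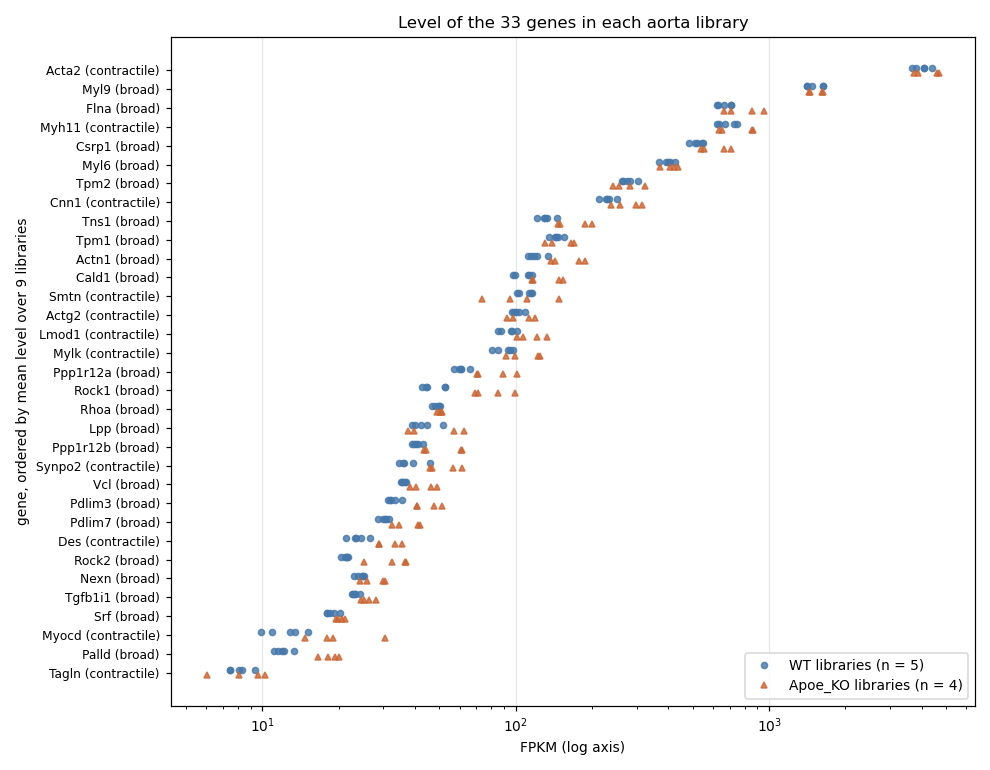
FPKM of each of the 33 genes (log axis) in the 5 WT libraries (circles) and the 4 Apoe_KO libraries (triangles), ordered by mean level. Levels run from Acta2 at 3683 to 4669 FPKM down to Tagln at 6.06 to 10.2 FPKM, and genotypes lie close together for most of the abundant genes.

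Tagln, which encodes transgelin (SM22), a calponin-family protein that binds actin and is used as a smooth muscle marker, was the lowest of the 33 genes. It stood at 8.30, 7.46, 9.37, 7.42 and 8.08 FPKM in WT 1 to 5 and at 10.2, 8.05, 9.61 and 6.06 FPKM in Apoe_KO 1 to 4. The groups overlapped, with the highest and the lowest library both in Apoe_KO. Of its 1988 exonic bases, 1241 (62.4%) overlap the exons of the antisense gene Gm48529 and 108 (5.43%) those of Pcsk7, also antisense. The sources used here do not say whether the counting used strand or how it treated such bases, so the value of 221 to 396 reads per library is uncertain, and the part of the overlap in it was not tested.

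Promoter sequences from RefSeq (GRCm38.p6, 250 bases before to 50 after the transcription start) were found for 26 of the 33 genes. No window was matched for Actg2, Myh11, Myocd, Tagln, Nexn, Rock1 or Tgfb1i1. The CArG box in its strict form was present in 4 of the 26 (Myl6, Myl9, Srf and Vcl), against 1.81% of 27025 genes with a window. The stretches are printed because they hold the motif that ties these genes to serum response factor. Each runs 5′ to 3′ on the strand of the gene, and capitals mark the box. They lie at chr17:46556200-46556259 (minus, Srf), chr14:20929156-20929195 (plus, Vcl), chr2:156775288-156775327 (plus, Myl9) and chr10:128493035-128493074 (minus, Myl6).
Srf: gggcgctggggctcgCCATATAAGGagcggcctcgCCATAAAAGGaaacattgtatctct
Vcl: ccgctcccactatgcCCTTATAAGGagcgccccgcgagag
Myl9: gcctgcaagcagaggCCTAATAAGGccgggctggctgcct
Myl6: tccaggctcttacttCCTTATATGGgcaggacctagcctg

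A looser form, with 1 G or C inside the central A and T stretch, was present in another match of Myl9 and in Acta2, Lpp and Pdlim3, so in 4 of 26 against 9.69% of genes. Acta2 held a pair of such boxes (chr19:34255383-34255472, minus strand), which start 84 and 34 bases before its transcription start. Pdlim3 held 1 box (chr8:45885372-45885411, plus strand). The MCAT element, the 6-base site of TEAD factors (CATTCC, or GGAATG on the other strand), was present in 12 of the 26 windows against 16.6% of genes. These matches are descriptions of the letters in a short window and say nothing of boxes elsewhere.
Acta2: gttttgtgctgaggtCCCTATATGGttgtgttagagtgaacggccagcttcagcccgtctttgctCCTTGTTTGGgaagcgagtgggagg
Pdlim3: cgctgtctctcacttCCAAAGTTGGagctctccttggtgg

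Genotypes were compared with limma on log2(FPKM + 1), fitted to all 13383 tested genes, and a gene is said to have risen or fallen where the adjusted p was under 0.05. Of the 33 genes, 8 rose in Apoe_KO (Rock1, Rock2, Ppp1r12a, Palld, Pdlim3, Actn1, Des and Synpo2), 0 fell and 25 did not pass. Over all tested genes 3.43% were higher and 3.92% lower, 7.35% in all. That split of 459 against 524 genes was 630 against 269 with median centring and 485 against 240 with quantile normalization, under which 9 and 5 members rose and 0 fell. In 13 of the 33 every Apoe_KO library lay above every WT library, and in 0 below, against 4.9% and 7.48% of all tested genes. The fitted difference was above 0 for 31 of the 33 (36.1% of all tested genes), with a median of 0.26 (range -0.08 to 0.76) where the median of all tested genes was -0.07. Without WT 2 and Apoe_KO 4 the count of risen genes was 3 (1.56% of all tested genes), and with library weights 17 (5.25%). With the replicate number as a block it was 1 (0.904%). Number 5 occurs only in WT, so the block takes WT 5 out of the difference and rests on the 4 same-numbered pairs. The labels do not say that these libraries are paired. Leaving out 1 library gave counts of 4 to 14. The count was 4 without WT 1, WT 4, WT 5, Apoe_KO 1 or Apoe_KO 3 (1.54% of all tested genes for the last). It was 5 without WT 2 and 14 without Apoe_KO 2 (4.33%). Among all tested genes 306 of 13219 rose without WT 1, 260 of 13226 without WT 4 and 314 of 13231 without WT 5. Such totals were 287 of 13277 without Apoe_KO 1 and 319 of 13169 without WT 2.

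By role, the 8 genes that rose were 3 of the 6 that control myosin phosphorylation and 5 of the 11 that anchor filaments. Of 12 genes of the thin filament and the myosin motor 0 passed, with a median difference of 0.05 and 0 whose groups were apart. Of 17 genes of phosphorylation control, dense bodies, intermediate filaments and adhesions 8 rose, with a median of 0.36 and 12 whose groups were apart. Over all tested genes 3.43% were higher and 4.9% had every Apoe_KO library above every WT library. Of 4 transcription regulators 0 passed, with a median of 0.20. The 17 genes join the roles that hold all 8 calls. The roles were assigned with earlier results of these data known, so the split is a description with no test. It also runs with level, since the 8 genes at 200 FPKM or more had 0 risen members and a median of 0.10, against medians of 0.30 in both lower bands.

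**Figure D2:**
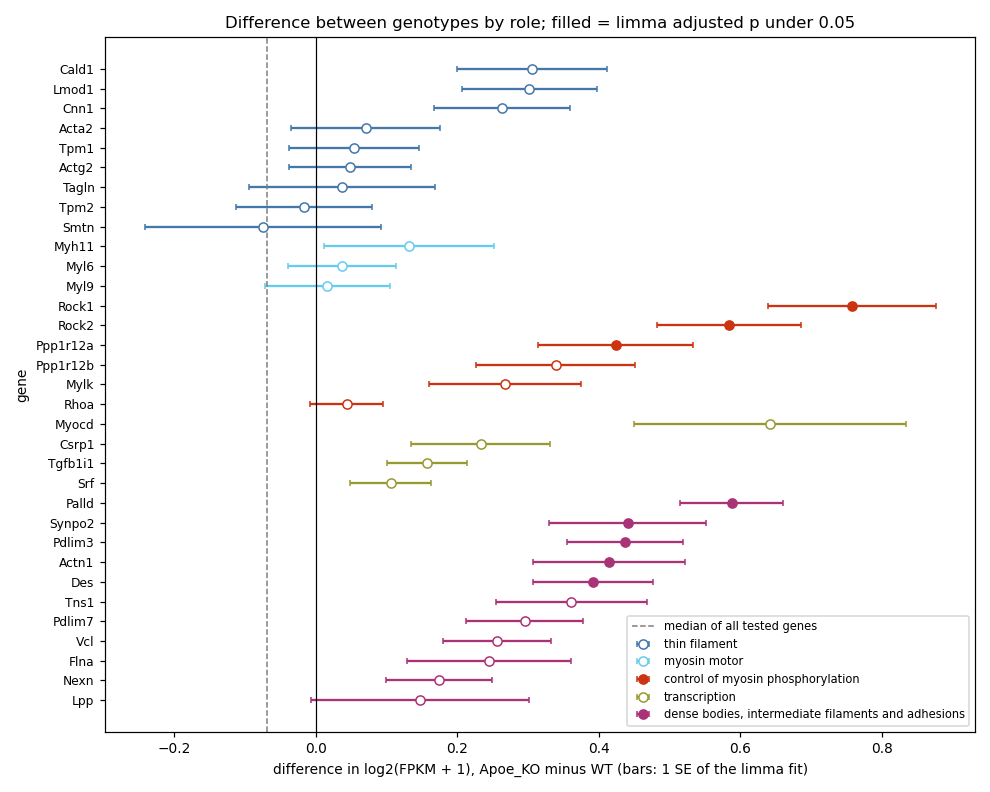
Difference in log2(FPKM + 1), Apoe_KO minus WT, for each gene with 1 SE of the limma fit, grouped by role. Filled points are the 8 genes with an adjusted p under 0.05, and all 8 lie in the control of myosin phosphorylation or among dense body, intermediate filament and adhesion genes, while the thin filament and myosin genes centre near 0.

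The thin filament genes did not pass the test. Acta2 stood at 4087, 3683, 4412, 3792 and 4072 FPKM in WT 1 to 5 and at 4669, 3749, 4585 and 3884 FPKM in Apoe_KO 1 to 4. The groups overlapped, since 2 Apoe_KO libraries lay above and 2 within the WT range. Its log2 difference was 0.07 with a 95% interval of -0.16 to 0.31 (limma adjusted p = 0.721). Actg2, the gamma-actin typical of visceral smooth muscle, was at 102 ± 4.83 FPKM in WT and 106 ± 12.6 FPKM in Apoe_KO (SD, n = 5 and 4). Muscle actins are alike in their coding sequence, as are the tropomyosins, and the sources used here do not say how reads shared between such paralogs were counted.

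Tropomyosins lie along actin and govern myosin access to it. Tpm2 was at 277 ± 16.6 FPKM in WT and 276 ± 36.8 FPKM in Apoe_KO, and Tpm1 was at 145 ± 7.06 and 151 ± 19.5 FPKM. The log2 difference of Tpm2 was -0.02 (95% interval -0.23 to 0.20) and that of Tpm1 was 0.05 (-0.15 to 0.26). Cnn1, which encodes calponin, an inhibitor of the actin-activated myosin ATPase, was at 227, 213, 251, 233 and 229 FPKM in WT and at 316, 238, 299.6 and 259 FPKM in Apoe_KO. Only Apoe_KO 2 fell within the WT range, and the log2 difference of 0.26 did not pass (limma adjusted p = 0.125). Cald1, whose product caldesmon also restrains actomyosin, gave 0.31 (adjusted p = 0.110), and Lmod1, which nucleates actin filaments in smooth muscle, gave 0.30 (adjusted p = 0.0847). Cnn1, Cald1 and Lmod1 had the largest fitted differences of the thin filament genes.

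Smtn, the gene of smoothelin, was the member with the lowest fitted difference. It stood at 115, 116, 112, 101 and 103 FPKM in WT and at 148, 94.5, 111 and 73.9 FPKM in Apoe_KO. Apoe_KO held both the highest and the lowest library, and its SD was 31.5 FPKM against 6.91 FPKM in WT. The log2 difference was -0.08 with a 95% interval of -0.45 to 0.30, and its sign turned without WT 2 and Apoe_KO 4 (0.11). Antisense genes overlap 753 of its exonic bases, 714 of them Gm11946.

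The genes of the motor did not pass either. Myh11, the smooth muscle myosin heavy chain and the most specific marker of the lineage, stood at 730.4, 625, 748, 633 and 671 FPKM in WT and at 863, 652, 860 and 635 FPKM in Apoe_KO. Apoe_KO 1 and 3 lay above all WT libraries and Apoe_KO 2 and 4 within them, and the log2 difference was 0.13 (95% interval -0.14 to 0.40, limma adjusted p = 0.541). Myl9 was at 1515 ± 111 FPKM in WT and 1532 ± 102 FPKM in Apoe_KO, a log2 difference of 0.02 (-0.18 to 0.21). Myl6, the essential light chain shared with non-muscle myosin, was at 399 ± 21.2 and 410 ± 27.8 FPKM, a log2 difference of 0.04 (-0.13 to 0.21).

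Among the genes that set myosin phosphorylation, both ROCK kinase genes rose. Rock1 (ENSMUSG00000024290) stood at 44.3, 42.6, 52.5, 52.7 and 44.6 FPKM in WT 1 to 5 and at 99.7, 71.2, 85.2 and 69.0 FPKM in Apoe_KO 1 to 4. The groups were far apart, and the Apoe_KO mean was 1.72 times the WT mean (log2 difference 0.76, SE 0.12, limma adjusted p = 0.00670), the largest difference of the 33 genes. Rock2 (ENSMUSG00000020580, chr12:16894895-16987823, plus strand) stood at 21.8, 20.4, 21.4, 21.5 and 21.3 FPKM in WT and at 36.8, 25.3, 36.5 and 32.4 FPKM in Apoe_KO. WT libraries were within 2 FPKM of each other and all Apoe_KO libraries lay above them, with Apoe_KO 2 nearest (ratio 1.54, log2 difference 0.58, SE 0.10, adjusted p = 0.0109). Both calls held in each of the 9 fits that left out 1 library. Rock1 lost its call with the replicate block (adjusted p = 0.0735), and Rock2 with the block (0.0635) and without WT 2 and Apoe_KO 4 (0.0562).

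The phosphatase that ROCK inhibits is targeted to myosin by a regulatory subunit. Ppp1r12a (ENSMUSG00000019907, chr10:108162193-108284475, plus strand), which encodes this subunit (MYPT1), stood at 61.0, 57.3, 65.8, 59.8 and 60.7 FPKM in WT and at 101, 70.3, 89.4 and 71.1 FPKM in Apoe_KO. It rose by 0.42 on the log2 scale (SE 0.11, limma adjusted p = 0.0465), with all Apoe_KO libraries above WT. The call is a fragile one, since it was lost in 7 of the 9 fits that left out 1 library (without any WT library, Apoe_KO 1 or Apoe_KO 3), with adjusted p up to 0.131. Its relative Ppp1r12b was at 40.7 ± 1.51 FPKM in WT and 52.4 ± 9.93 FPKM in Apoe_KO, with no overlap, but did not pass (0.34, adjusted p = 0.0976).

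The GTPase above the kinases and the kinase that opposes the phosphatase gave no call. Rhoa stood at 46.8, 47.9, 49.7, 50.3 and 49.2 FPKM in WT and at 51.3, 50.8, 49.1 and 50.1 FPKM in Apoe_KO. Libraries of both groups spanned a narrow range, and the 95% interval of its log2 difference (0.04) was -0.07 to 0.16. Mylk, the myosin light chain kinase, stood at 94.9, 80.7, 97.3, 84.7 and 93.5 FPKM in WT and at 125, 99.6, 122 and 91.2 FPKM in Apoe_KO. Of the Apoe_KO libraries only Apoe_KO 4 lay within the WT range, and the log2 difference of 0.27 did not pass (limma adjusted p = 0.160). Rhoa, Mylk and Ppp1r12b overlap antisense genes on 356, 772 and 710 exonic bases.

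The transcription regulators did not pass the test, although the myocardin gene had the second largest difference of all members. Myocd stood at 10.9, 9.92, 15.2, 13.5 and 12.8 FPKM in WT and at 30.6, 18.0, 18.9 and 14.7 FPKM in Apoe_KO. Apoe_KO 1 lay far above the rest and Apoe_KO 4 below WT 3, so the groups overlapped. The Apoe_KO mean was 1.65 times the WT mean, the log2 difference 0.64 (SE 0.19, 95% interval 0.21 to 1.07) and the limma adjusted p 0.0743. It passed without Apoe_KO 4 (0.0484) and with library weights (0.0310).

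Srf, whose promoter boxes are printed above, stood at 18.6, 19.3, 18.0, 20.3 and 18.0 FPKM in WT and at 21.2, 19.6, 20.6 and 19.8 FPKM in Apoe_KO, a log2 difference of 0.11 (limma adjusted p = 0.289). The ranges overlapped only through WT 4. Csrp1, a LIM protein that bridges serum response factor and GATA factors, was at 521 ± 26.9 FPKM in WT and 615 ± 80.9 FPKM in Apoe_KO (0.23, adjusted p = 0.177). Tgfb1i1, the LIM protein Hic-5 of adhesions and nucleus, was at 23.2 ± 0.654 and 26.0 ± 1.59 FPKM, with no overlap between groups (0.16, adjusted p = 0.123).

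Genes of dense bodies, intermediate filaments and adhesions held 5 of the 8 risen members. Palld (ENSMUSG00000058056, chr8:61511433-61902690, minus strand, GRCm38), which encodes palladin, an actin-bundling scaffold of dense bodies and stress fibres, had the smallest p. It stood at 11.5, 11.1, 11.9, 13.3 and 12.2 FPKM in WT and at 19.98, 16.6, 19.4 and 18.2 FPKM in Apoe_KO. No library of either group came near the other, with a ratio of means of 1.55 and a log2 difference of 0.59 (SE 0.07, limma adjusted p = 0.00219). Palld was called in all 9 fits that left out 1 library and under all 10 other alternatives, the replicate block included (adjusted p = 0.0425).

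Pdlim3 (ENSMUSG00000031636, chr8:45885461-45919548, plus strand), which encodes the alpha-actinin-associated LIM protein ALP, stood at 32.1, 31.8, 35.6, 33.3 and 31.4 FPKM in WT and at 51.0, 40.7, 47.6 and 40.7 FPKM in Apoe_KO. It rose by 0.44 on the log2 scale (SE 0.08, limma adjusted p = 0.0137), and the call was lost with the replicate block (0.1001) and, by a little, without Apoe_KO 3 (0.0503). Actn1 (ENSMUSG00000015143, chr12:80167547-80260371, minus strand) encodes the alpha-actinin that crosslinks actin and binds PDLIM proteins. It stood at 122, 115, 134, 112 and 118 FPKM in WT and at 188, 143, 178 and 137 FPKM in Apoe_KO, again with no overlap. The difference was 0.42 (SE 0.11, adjusted p = 0.0464), lost in 6 of 9 fits that left out 1 library (WT 1, WT 2, WT 4, WT 5, Apoe_KO 1 or Apoe_KO 3). Antisense genes overlap 451 of its exonic bases.

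Des (ENSMUSG00000026208, chr1:75360329-75368579, plus strand) and Synpo2 (ENSMUSG00000050315, chr3:123076519-123236149, minus strand) were the only contractile markers that rose. Desmin is the muscle intermediate filament that links dense bodies, and its gene stood at 23.5, 24.6, 26.6, 23.2 and 21.3 FPKM in WT and at 35.5, 33.3, 28.8 and 28.8 FPKM in Apoe_KO. The log2 difference was 0.39 (SE 0.09, ratio of means 1.33, limma adjusted p = 0.0246), and the call was lost without any of WT 1, WT 4, WT 5 or Apoe_KO 1, with adjusted p up to 0.0637. Antisense Gm15179 overlaps 220 exonic bases of Des.

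Synaptopodin-2 (myopodin) binds actin, alpha-actinin and filamin. Synpo2 stood at 39.4, 34.6, 45.9, 36.3 and 35.8 FPKM in WT and at 61.3, 46.7, 56.5 and 45.9 FPKM in Apoe_KO. Apoe_KO 4 and WT 3 were nearly level, so the separation was narrow. The log2 difference was 0.44 (SE 0.11, limma adjusted p = 0.0426), lost in 6 of 9 fits that left out 1 library (WT 1, WT 2, WT 4, WT 5, Apoe_KO 1 or Apoe_KO 3). Synpo2, Actn1, Ppp1r12a and Des also lost their calls without WT 2 and Apoe_KO 4.

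The other 6 anchoring genes did not pass. Groups did not overlap for Tns1, the gene of tensin 1, which couples actin to integrins (132 ± 8.59 FPKM in WT, 171 ± 27.1 FPKM in Apoe_KO, limma adjusted p = 0.0699). The same was true of Vcl, the gene of vinculin in adhesion plaques (36.0 ± 0.775 and 43.4 ± 4.92 FPKM, adjusted p = 0.0717), and of Pdlim7 (30.2 ± 1.11 and 37.5 ± 4.70 FPKM, adjusted p = 0.0613). Of the exonic bases of Vcl, 2090 overlap the antisense gene Ap3m1. Flna, the gene of filamin A, which crosslinks actin into networks, was at 665 ± 42.4 FPKM in WT and 796 ± 135 FPKM in Apoe_KO (0.25, adjusted p = 0.225). Nexn, which encodes the actin-binding nexilin, gave 0.17 and Lpp, the lipoma-preferred partner of adhesions, gave 0.15, with overlapping groups for both.

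**Figure D3:**
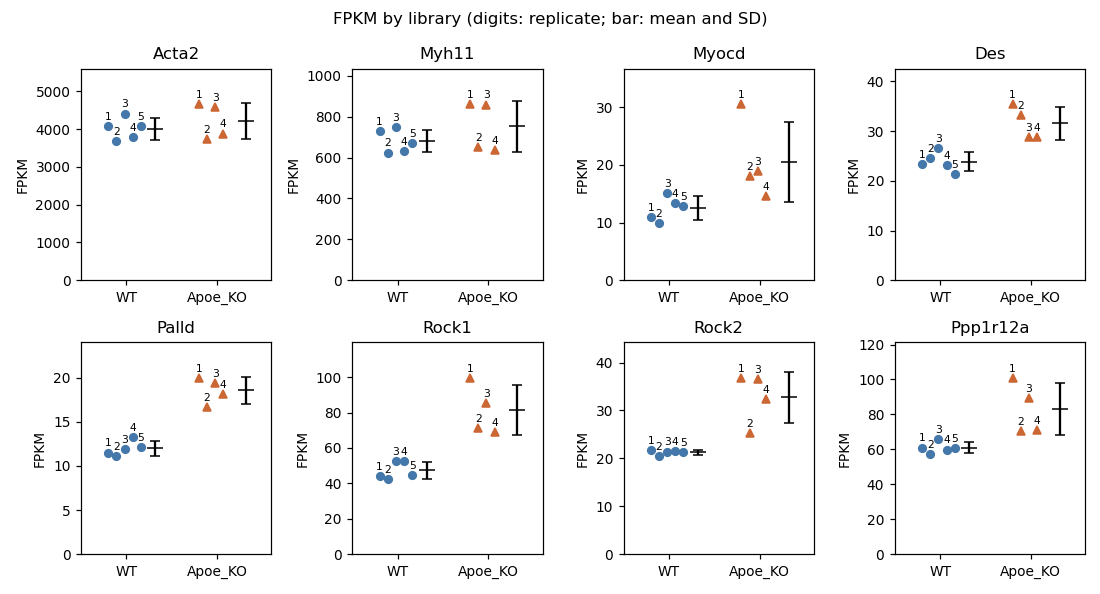
FPKM by library for 8 of the genes, with WT as circles, Apoe_KO as triangles, digits for the replicate and a bar for the mean and SD. Rock1, Rock2, Palld, Des and Ppp1r12a show no overlap between groups, Acta2 and Myh11 overlap, and in Myocd Apoe_KO 1 (30.6 FPKM) stands above the other Apoe_KO libraries (14.7 to 18.9 FPKM).

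Contractile markers and broad cytoskeletal genes had similar medians. Of the 11 contractile markers 2 rose and 0 fell, with a median log2 difference of 0.26 (range -0.08 to 0.64). Of the 22 broad genes 6 rose and 0 fell, with a median of 0.25 (range -0.02 to 0.76). Every Apoe_KO library lay above every WT library in 2 of the 11 and in 11 of the 22, against 4.9% of all tested genes. The share of all tested genes that rose was 3.43%. The mean log2 level of the contractile markers minus that of the broad genes was 0.30 ± 0.04 in WT and 0.26 ± 0.07 in Apoe_KO (SD, n = 5 and 4). The libraries ran from 0.25 to 0.37 in WT and from 0.16 to 0.32 in Apoe_KO, so the balance of the sets differed by less than the spread between libraries. These are scores over chosen genes and were given no p.

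Most members were high in the same Apoe_KO libraries. The summed FPKM of the contractile markers was 5533, 4987, 5923, 5118 and 5432 in WT 1 to 5 and 6494, 5160, 6322 and 5237 in Apoe_KO 1 to 4. For the broad genes the sums were 4503, 4070.4, 4628, 4159 and 4248 in WT and 5394, 4388, 5145 and 4326 in Apoe_KO. In both sets Apoe_KO 1 and 3 lay above all WT libraries, and Apoe_KO 2 and 4 lay within the WT range. Apoe_KO 1 and 3 were both above Apoe_KO 2 and 4 in 30 of the 33 genes, against 24.5% of tested genes, and Apoe_KO 1 was the highest of all libraries for 27. The median coefficient of variation of the members was 6.32% in WT and 13.1% in Apoe_KO, against 11.9% and 14% over all tested genes.

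White adipocyte transcripts ran the other way in these libraries. The summed FPKM of 8 white adipocyte markers was 3801, 4356, 4804, 5920 and 4176 in WT and 2459, 4697, 2842 and 3738 in Apoe_KO. The lowest sums were those of Apoe_KO 1 and 3, where the muscle genes were highest. Of the 8 markers 2 fell, Lep (log2 difference -1.74, limma adjusted p = 0.0276) and Plin1 (-0.56, 0.0466), and 8 of 8 were fitted below 0. Among all tested genes 3.92% fell and 36.1% were fitted above 0. The call of Lep ended when Apoe_KO 3, WT 1, WT 2 or WT 4 was left out (adjusted p up to 0.0850), and Plin1 kept it only without Apoe_KO 2 (otherwise up to 0.128). None of the 8 was at 0 in any library. The part of perivascular fat in the differences of the muscle genes was not tested.

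**Figure D4:**
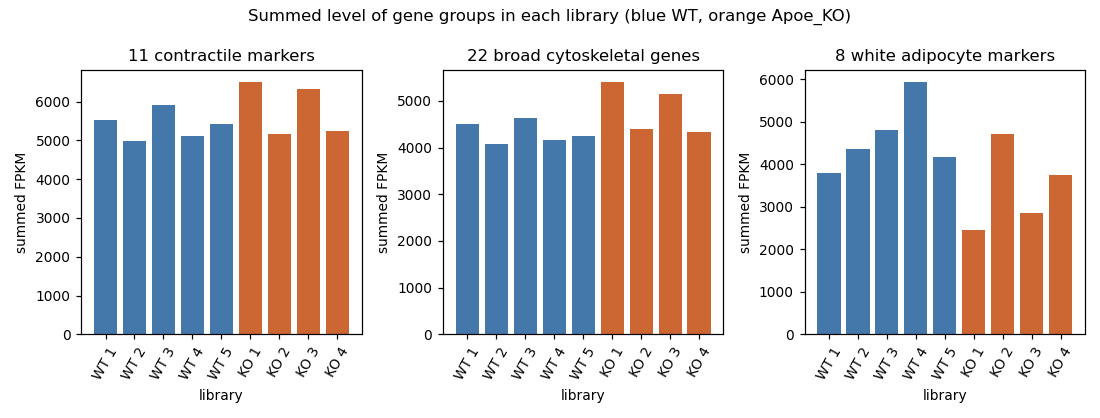
Summed FPKM of the 11 contractile markers, the 22 broad cytoskeletal genes and 8 white adipocyte markers in each library (blue WT, orange Apoe_KO, axes from 0). Apoe_KO 1 and 3 have the highest muscle sums (6494 and 6322 FPKM for contractile markers) and the lowest adipocyte sums (2459 and 2842 FPKM).

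Levels were also set against Acta2 in the same library, which divides out only a factor that a gene shares with Acta2. Whole aorta holds other cell types, and the part of each gene's level that came from them was not tested. As a percentage of Acta2, 15 of the other 32 genes were higher in every Apoe_KO library than in every WT library and 0 were lower, against 3.15% and 5.72% of all other tested genes. Rock1 was 1.08% to 1.39% of Acta2 in WT and 1.78% to 2.13% in Apoe_KO. Rock2 was 0.485% to 0.568% in WT and 0.674% to 0.834% in Apoe_KO. Myocd, whose groups overlapped in FPKM, did not overlap on this scale (0.267% to 0.355% against 0.378% to 0.656%). Among the contractile markers Cnn1, Mylk and Synpo2 were also apart. Des and Tgfb1i1, whose groups did not overlap in FPKM, did overlap per Acta2. Des was 0.523% to 0.667% of Acta2 in WT and 0.628% to 0.888% in Apoe_KO.

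Difference also ran with exonic length, counted over all annotated exons of a gene. Of the members with up to 5 kb of exon 1 of 14 rose (median 0.09), of those with 5 to 10 kb 3 of 10 (median 0.25), and of those over 10 kb 4 of 9 (median 0.36). Over all tested genes the shares that were higher in these classes were 3.04%, 3.88% and 4.5%, with medians of -0.08, -0.06 and -0.03. The part of length in the members' differences was not tested.

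The pathway around these genes was read from lists chosen with earlier results known. Over all tested genes 3.43% were higher, 3.92% lower and 36.1% fitted above 0. These shares stand beside the counts of this and the later lists. Among 24 genes that act on ROCK, actin turnover or serum response factor 5 rose and 1 fell, with a median of 0.06. Rnd3, an atypical GTPase that inhibits ROCK1, fell from 18.6, 17.3, 19.9996, 19.7 and 16.6 FPKM in WT to 12.0, 8.89, 9.21 and 8.58 FPKM in Apoe_KO. The groups were well apart, with a log2 difference of -0.87 (SE 0.10, limma adjusted p = 0.00150), called in every fit that left out 1 library and with the replicate block. Rnd3 was lower in each Apoe_KO library and Rock1 higher in each, and a link between these transcript changes was not tested. Rhob, an early-response GTPase, rose from 112, 117, 138, 139 and 135 FPKM to 189.7, 165, 213 and 191 FPKM (0.56, adjusted p = 0.0109). Rhob lost its call with the replicate block (adjusted p = 0.0505) and without WT 2 and Apoe_KO 4 (0.0532).

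The other risen genes of that list act on transcription or on the phosphatase. Mrtfa, a myocardin-related coactivator freed when actin polymerises, was at 3.99 ± 0.666 FPKM in WT and 5.81 ± 0.536 FPKM in Apoe_KO (0.46, limma adjusted p = 0.0303), while its relative Mrtfb gave 0.04. The TEAD factor genes Tead1 (0.44, adjusted p = 0.0274) and Tead3 (0.32, 0.0281) rose, as did Ppp1r12c, another myosin phosphatase subunit (0.32, 0.0197). Mrtfa lost its call without any library other than WT 2 or Apoe_KO 2 (adjusted p up to 0.0714), and Tead1 without any other than WT 5, Apoe_KO 2 or Apoe_KO 4 (up to 0.0778). Tead3 lost it without any library other than WT 2, Apoe_KO 2 or Apoe_KO 4 (up to 0.0927), and Ppp1r12c without WT 4 or Apoe_KO 3 (up to 0.0641).

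Among 24 other genes of the cytoskeleton and focal adhesions 6 rose and 0 fell, with a median of 0.13. Cnn3, the acidic calponin of many cell types, rose from 111 ± 3.67 to 161 ± 7.49 FPKM (0.54, limma adjusted p = 0.00150). Flnc, the gene of filamin C, the muscle filamin, rose from 14.4 ± 0.901 to 25.2 ± 4.27 FPKM (0.75, adjusted p = 0.00444). Both were called in all fits that left out 1 library and with the block. Zyx, the gene of the strain-sensing adhesion protein zyxin (0.46, 0.00839), Pdlim5 (0.48, 0.0219), Vim, the gene of vimentin (0.37, 0.0248), and Actn4 (0.32, 0.0262) also rose. The cytoplasmic actins gave no call, with log2 differences of -0.02 for Actb (95% interval -0.24 to 0.20) and 0.00 for Actg1 (-0.17 to 0.17). Zyx was also called whichever 1 library was left out, but not with the block (adjusted p = 0.0971). Vim and Actn4 lost their calls without WT 1, WT 2, WT 4, WT 5, Apoe_KO 1 or Apoe_KO 3 (adjusted p up to 0.0817 for both), and Pdlim5 without Apoe_KO 1 or Apoe_KO 3 (up to 0.0726). Cnn3, Actn4 and Zyx overlap antisense genes.

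Of 15 other smooth muscle genes 2 rose and 0 fell, with a median of 0.15. They were Pgm5, the gene of aciculin in adhesion plaques (0.40, limma adjusted p = 0.0390), and Itga8, the integrin alpha-8 gene of vascular smooth muscle, which was at 257 ± 32.8 FPKM in WT and 359 ± 48.3 FPKM in Apoe_KO (0.48, adjusted p = 0.0399). Itga8 lost its call without any library other than WT 3, Apoe_KO 2 or Apoe_KO 4 (adjusted p up to 0.117), and Pgm5 without any other than WT 3, WT 5 or Apoe_KO 2 (up to 0.114). Groups were apart in 2 genes in each direction, against 4.9% (Apoe_KO above) and 7.48% (Apoe_KO below) of all tested genes. Aoc3, a vascular amine oxidase gene, gave -0.27 (adjusted p = 0.0620) and Gucy1a1, a soluble guanylate cyclase subunit gene, -0.46 (adjusted p = 0.118), both with every Apoe_KO library below every WT library and neither past the test. Of 12 genes linked to modulated smooth muscle cells 3 rose and 0 fell, with a median of 0.27. Spp1, the gene of osteopontin, rose from 2.95 ± 0.714 to 7.00 ± 2.06 FPKM (1.01, adjusted p = 0.0118), Vcan, a matrix proteoglycan, by 0.37 (0.00849) and Timp1, a metalloproteinase inhibitor, by 0.37 (0.0226). Spp1 and Vcan were called in all 9 fits that left out 1 library but not with the replicate block (adjusted p = 0.0762 and 0.0814), and Timp1 was not without WT 4 or Apoe_KO 3 (adjusted p up to 0.0600). The list went both ways, with 3 genes fitted below 0. Tnfrsf11b, the gene of osteoprotegerin, was at 5.82 ± 0.897 FPKM in WT and 3.74 ± 1.04 FPKM in Apoe_KO with no overlap (-0.54, adjusted p = 0.0620), and Col8a1, a collagen gene, gave -0.42 (adjusted p = 0.0696). Klf4, a factor of smooth muscle modulation, gave no call (0.31, adjusted p = 0.321). The list is not specific to smooth muscle, and its genes Lum and Dcn are also among the 10 fibroblast markers used here. Spp1 was highest in Apoe_KO 4 (9.98 FPKM), the library with the highest sum of macrophage markers (943 FPKM). Which cells these transcripts came from was not tested. Of the contractile markers 0 of 11 fell, against 3.92% of all tested genes, a share so low that this count says little.

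Markers of other cells and of sample handling are given for comparison, with their part in the muscle genes' differences not tested. Striated muscle also expresses Des, Synpo2, Flnc and Pdlim3. Its 16 markers summed to 38.5 to 123 FPKM in WT and 16.8 to 78.1 FPKM in Apoe_KO. Of its 9 tested markers 0 rose and 0 fell, with a median of -0.50. Levels were uneven between markers and libraries. Actc1 was at 5.07 to 36.4 FPKM and Myh6 at 0.303 to 15.8 FPKM, while Myl2 was at most 0.09 FPKM and at 0 in 4 libraries. Of 8 pericyte markers 1 rose (Abcc9, 0.36, limma adjusted p = 0.0326) and 1 fell (Ndufa4l2, -0.53, 0.0246), and their sums only just did not overlap, at 413 to 512 FPKM in WT and 512 to 586 FPKM in Apoe_KO. Of 10 fibroblast markers Col3a1 fell (-0.72, adjusted p = 0.0248), and sums were 2013 to 2712 FPKM in WT and 1747 to 2421 FPKM in Apoe_KO. The fibroblast list had a median of -0.04 with 4 of 10 fitted above 0, among them Pi16 (0.34, adjusted p = 0.0713), whose groups did not overlap. Abcc9 lost its call without any library other than Apoe_KO 2 or Apoe_KO 4 (adjusted p up to 0.0990). Col3a1 lost it without WT 1, WT 4, WT 5, Apoe_KO 1 or Apoe_KO 4 (up to 0.0590), and Ndufa4l2 without WT 1, WT 2, WT 5, Apoe_KO 1 or Apoe_KO 4 (up to 0.0634).

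Of 10 endothelial markers Kdr fell (-0.58, limma adjusted p = 0.0184), and 9 of the 10 were fitted below 0 with a median of -0.32. Their sums were 249 to 416 FPKM in WT and 233 to 386 FPKM in Apoe_KO. The sums of 8 Schwann cell and nerve markers were 295 to 478 FPKM in WT and 218 to 347 FPKM in Apoe_KO, with a median difference of -0.44. Kdr lost its call without Apoe_KO 3 (adjusted p = 0.0641). Macrophage markers summed to 371 to 626 FPKM in WT and 470.2 to 943 FPKM in Apoe_KO, with 0 of 10 called and a median of 0.20. Brown adipocyte markers summed to 518 to 1066 and 437 to 1089.6 FPKM with 0 of 7 called and a median of -0.14. Of 4 tested B and plasma cell markers and 2 tested T cell markers 0 were called, with medians of -0.30 and 0.18. T cell markers summed to 68.5 FPKM in WT 2 and 65.2 FPKM in Apoe_KO 4.

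Of 14 immediate early and heat shock genes of tissue stress and handling 5 rose and 0 fell, with a median of 0.41 and a range of -1.59 to 2.66. The lowest was the immediate early gene Fos, at 71.9 ± 42.8 FPKM in WT and 21.2 ± 7.48 FPKM in Apoe_KO with overlapping groups (limma adjusted p = 0.0659), and 3 of the 14 were fitted below 0. Hspb1, a small heat shock protein that also stabilises actin, rose by 2.22 on the log2 scale (limma adjusted p = 0.000374), Hsph1 by 1.88 (0.00107) and Hspa8 by 1.08 (0.000914). The other two, Hspa1a and Hspa1b, were named after their values were seen and are near-identical copies. The calls of Hspb1, Hsph1 and Hspa8 held in all 9 fits that left out 1 library and with the replicate block. The sums of the list did not overlap, at 499.6 to 915 FPKM in WT and 1329 to 1763 FPKM in Apoe_KO. Within Apoe_KO these sums were highest in Apoe_KO 4 (1763 FPKM) and lowest in Apoe_KO 3 (1329 FPKM). Their part in the muscle genes' differences was not tested.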

How the data were processed

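RNA of 9 aorta libraries (5 WT, 4 Apoe_KO) was measured, with values in 1 deposited table with 33293 identifiers and no unit in its header. The deposited values were taken as FPKM, that is, reads the authors scaled by gene length and library size. The value times exonic length in GENCODE mouse release 21 was whole within 0.1 read for 95.9% to 97.9% of values worth up to 50 reads. Per the submitters' processing notes the build was GRCm38, and limma is named without role or version. The sources used here name no aligner, counter, annotation or strandedness. Per the labels' protocols ribosomal RNA was removed, although the molecule label says polyA RNA.

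The test was limma 3.58.1 (R 4.3.3, eBayes with trend and robust) on log2(FPKM + 1), a scale that understates changes of low genes. It ran over the 13383 genes that reached 1 FPKM in 4 or more libraries, with genotype as the only term, and p-values were adjusted over all of them by Benjamini-Hochberg (threshold 0.05). The design allowed for counts, and this test was used because of the unit. The steps were tested on simulated data. Python 3.11.15, numpy 2.4.6, pandas 2.3.3 and matplotlib 3.10.9 did the rest.

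The members and all lists were chosen with earlier results of these data known. Named genes were the 33 members, Apoe, up to 6 called genes per pathway list and up to 3 per marker list by smallest adjusted p. Beyond this rule Mrtfb, Actb, Actg1, Klf4, Tnfrsf11b, Col8a1, Aoc3, Gucy1a1, Pi16, Fos, Actc1, Myh6, Myl2, Hspa1a and Hspa1b were named after their values were seen. Lum and Dcn were named as genes shared between lists. Of the genes this rule chose, 1 is not reported here. Alternatives were the replicate number as a block, each library left out, WT 2 and Apoe_KO 4 left out together, filters of 10 FPKM or none, a pseudocount of 0.1, library weights, quantile normalization, median centring, voom on recovered reads and a threshold of 0.1.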

Additional observations from a re-analysis of the deposited data

How the results depend on the processing

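Median differences of both sets stayed above 0 under every alternative run, at 0.20 to 0.33 for the contractile markers and 0.18 to 0.32 for the broad genes, while counts of called genes moved. Of the 33 members 8 were called, with 1 under the replicate block, 3 without WT 2 and Apoe_KO 4, 4 with no filter, 5 with quantile normalization, 17 with library weights and 14 at a threshold of 0.1. For the 2 contractile markers these counts were 0, 0, 0, 1, 6 and 4. Of the broad genes 6 were called, with 1 under the block, 3 without that pair of libraries, 11 with weights and 10 at the looser threshold. The total of risen genes moved as well, from 459 of 13383 tested genes to 247 of 30432 with no filter. For the looser threshold that total is not given here. Leaving out 1 library gave 4 to 14 members, 0 to 4 contractile markers (0 without WT 1, WT 4, WT 5 or Apoe_KO 1, 4 without Apoe_KO 2) and 3 to 10 broad genes (3 without Apoe_KO 3, 10 without Apoe_KO 2).

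The 2 other smooth muscle genes became 0 under the block, without that pair, with no filter and with quantile normalization, 4 with weights, and 0 to 2 leaving out 1 library. The 6 ROCK, actin turnover and serum response factor genes became 1, 3 and 3 under the block, without the pair and with no filter, and 2 to 8 leaving out 1 library. The 6 other cytoskeleton and focal adhesion genes became 2 under the block, 3 without the pair and 3 to 7 leaving out 1 library. The 3 modulated genes became 0 under the block, 6 at a threshold of 0.1 and 2 to 5 leaving out 1 library. Deviations of same-numbered libraries of the genotypes correlated over genes at r = 0.26, -0.27, -0.13 and -0.22 for numbers 1 to 4. The largest r between genotypes was 0.609, for WT 2 and Apoe_KO 4. The labels do not say whether a shared number means a shared batch, and these values cannot decide it.

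Sign turned only for members near 0. Smtn was at 0.11 without WT 2 and Apoe_KO 4 and at 0.061 with weights, where Tpm2 was at 0.027 and 0.041, and Tpm2 was at 0.051 with median centring. Leaving out 1 library, differences ran from -0.051 to 0.17 for Tagln, -0.25 to 0.085 for Smtn, -0.012 to 0.11 for Actg2, -0.0033 to 0.12 for Tpm1, -0.10 to 0.044 for Tpm2 and -0.014 to 0.046 for Myl9. Of 626 single-member values, 542 kept direction and call, 43 lost the call, 24 gained it and 17 turned sign. The cause of these shifts was not tested. A filter of 10 FPKM left Tagln untested, and its count of 221 to 396 reads was the least precise of the members.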
